A study of Mus musculus with 8 samples.

Results

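The apolipoproteins are the protein part of the particles that carry lipid in blood, and the liver makes most of them. Members were the 10 genes Apoa1, Apoa2, Apoa4, Apoa5, Apob, Apoc1, Apoc2, Apoc3, Apoe and Apom. Every probe set whose annotation gave exactly 1 gene symbol among these was taken, which gave 16 of the 45101 probe sets on the array and 10 of the 18193 genes that it names by a single symbol. All 16 lay above the filter on dim signals, and none was left out of the tests. Apoa1 had 4 probe sets, Apoa4, Apob and Apom had 2 each, and the other 6 genes had 1 each. The brightest probe set, by its mean over all arrays, stood for its gene.

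RNA was taken from whole liver of male C57BL/6 mice aged 7 to 10 weeks and hybridised to 8 Affymetrix arrays, 2 for each of 4 groups. The groups were wild type mice without surgery (0 h), wild type mice 24 h after removal of 2/3 of the liver under 60 mg/kg ketamine and 7 mg/kg xylazine, Tob1 null mice without surgery, and Tob1 null mice 24 h after the same operation. A different pool of 3 animals went onto each array, so an SD below describes the spread between pools. An SE comes from the limma model, whose variance is pooled over all 4 groups and drawn towards that of all probe sets tested. With 2 arrays a group the precision of every value is limited. No group was sham operated, so effects of the surgery, the anaesthetic and the loss of tissue cannot be told apart. In whole liver, fewer cells of a type and less RNA per cell cannot be told apart either.

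Apolipoprotein B is the large scaffold of very low density lipoprotein (VLDL), and each particle keeps 1 copy from secretion to uptake. Apolipoproteins A-I and A-II build high density lipoprotein (HDL), and the small exchangeable proteins C-I, C-II, C-III, A-V and E move between particles, where they set how fast triglyceride is hydrolysed and remnants are cleared. Partial hepatectomy makes the remaining lobes take up fatty acids and store triglyceride for a time before the hepatocytes divide.

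The signals of Tob1 itself, the targeted gene, gave no clear check of the labels, since its probe sets ran in opposite directions. The brighter one read 10.46 and 10.53 in wild type at 0 h against 11.10 and 11.03 in the null arrays (normalised log2 signal), and was higher in the null arrays by 0.57 ± 0.16 at 0 h and 0.59 ± 0.16 at 24 h (limma adjusted p = 0.42 and 0.35). The dimmer one read 5.19 and 4.02 against 2.65 and 4.06 at 0 h, and 4.27 and 4.96 against 2.78 and 3.83 at 24 h. It differed by -1.25 ± 0.65 and -1.30 ± 0.65, so in the direction of the labels (adjusted p = 0.62 and 0.56). Neither passed, and whether either lies in the deleted part is not known here. The groups are called null-labelled below for that reason. Of the hepatocyte markers, 7 of 8 were on the array and above the filter, and their summed log2 level lay between 15.70 and 15.75 in every array. The brightest markers make up most of that sum, and the normalisation gives equal ranks equal values, so the sum could hardly move. Singly, the differences between 24 h and 0 h, wild type first and null-labelled second, were 0.55 and 0.53 for Fgb and 0.15 and 0.039 for Asgr1. They were -0.018 and 0.025 for Alb, -0.021 and 0.018 for Ttr, -0.41 and -0.39 for Cps1, -0.19 and -0.38 for Cyp2e1, and -0.16 and -0.52 for Hnf4a. None of these passed. The 3' to 5' log2 signal ratio of the actin control, a sign of RNA quality, at 0 h was 1.22 ± 0.24 (SD, n = 2) for wild type against 1.54 ± 0.058 for null-labelled arrays, and at 24 h 0.88 ± 0.032 against 1.16 ± 0.054. It was lower at 24 h in both genotypes, and its part in the results below was not tested.

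At 24 h after hepatectomy Apoa4 and Apoc2 were higher than at 0 h in both genotypes, and Apom was lower in wild type. Apoa1, Apoa2, Apoc3 and Apoe were within 0.12 log2 units of their level at 0 h after quantile normalisation, and up to 0.21 higher on the deposited scale. In wild type 3 of 10 genes passed the threshold (Benjamini-Hochberg adjusted p under 0.05 by limma over all 30525 probe sets tested), 2 higher and 1 lower, and 4 of 16 probe sets did. Of all probe sets tested 5.34% passed, 2.64% higher and 2.7% lower. In the null-labelled response 2 of 10 genes passed, both higher, with 3 of 16 probe sets, against 10.8% of all probe sets tested, 6.06% higher and 4.72% lower. With median centring in place of quantile normalisation the share of called probe sets that were higher in that response moved from 56.2% to 74.0%. Over the 10 genes the median difference was 0.017 for wild type, where that of all probe sets tested was -0.0012, and -0.077 for the null-labelled response, where it was -0.022. Both groups of a response did not overlap in 7 of 10 genes in wild type and 8 of 10 in the null-labelled arrays, beside 59.4% (29.8% higher, 29.7% lower) and 60.3% (29.7% higher, 30.6% lower) of all probe sets tested.

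**Figure D1:**
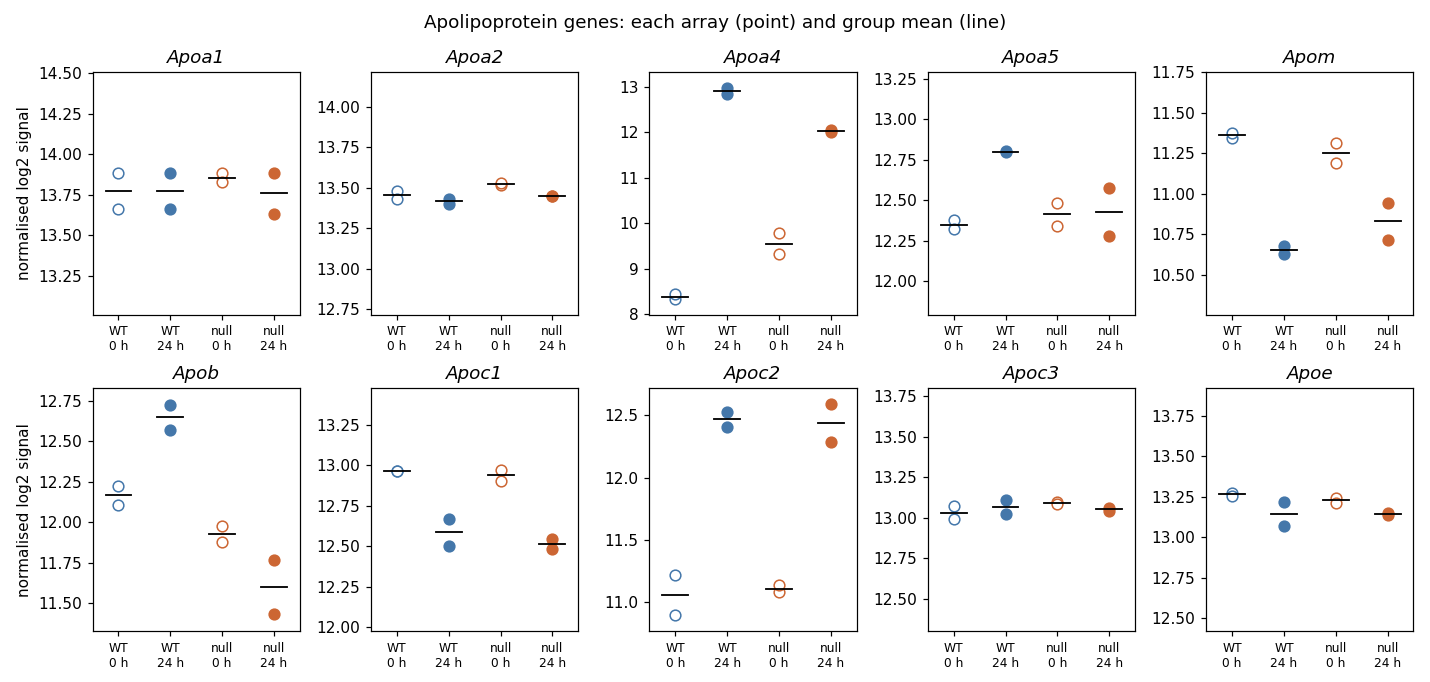
Normalised log2 signal of the probe set standing for each of the 10 genes, one panel per gene, in wild type (WT, blue) and null-labelled (null, orange) arrays at 0 h (open) and 24 h (filled); points are single arrays, each a pool of 3 animals, lines are group means, and the vertical range differs between panels. Apoa4 spans 8.33 to 12.98, while Apoa1, Apoa2, Apoc3 and Apoe vary little between groups.

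Apoa4 encodes apolipoprotein A-IV, a protein of chylomicrons and HDL. The mouse makes it in intestine and in hepatocytes, there more so when the liver is loaded with triglyceride, which these arrays do not measure. The brighter Apoa4 probe set read 8.33 and 8.43 in wild type at 0 h, and 12.98 and 12.84 at 24 h. In the null-labelled arrays it read 9.78 and 9.31 at 0 h and 12.04 and 12.02 at 24 h. The order of the groups was wild type 0 h, null-labelled 0 h, null-labelled 24 h and wild type 24 h, and no neighbouring groups overlapped. The rise was 4.53 ± 0.19 (log2 ± SE) in wild type, or 23.1-fold (limma adjusted p = 0.0030), and 2.49 ± 0.19 in the null-labelled arrays, or 5.60-fold (adjusted p = 0.012). In wild type 0.056% of all probe sets tested differed by more, and among null-labelled arrays 0.86%. The second probe set gave a larger rise, 5.52 ± 0.20 and 2.98 ± 0.20 (adjusted p = 0.0027 and 0.010). At 24 h in wild type the gene stood near the top of the array, where its brighter probe set reached rank 50 of the signals, while at 0 h it lay as low as rank 4362.

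The call for Apoa4 depended on 1 array in each genotype. With replicate 1 of wild type at 24 h left out, its rise in wild type was 4.45 with an adjusted p of 0.074 by limma, and no probe set of the array was called. With replicate 2 of the null-labelled 0 h group left out, its rise in that genotype was 2.25 (adjusted p = 0.065), and that of the second probe set 2.72 (0.055).

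Since the small intestine is the other main source of A-IV, its markers were read beside it. Of 5 intestinal genes, 4 were on the array. Fabp2, the intestinal fatty acid binding protein, rose by 1.21 ± 0.15 in wild type (limma adjusted p = 0.026) and by 0.80 ± 0.15 in the null-labelled arrays (adjusted p = 0.033). The caudal homeobox gene Cdx2 (0.11 and 0.30) and the galectin Lgals4 (-0.30 and -0.20) did not pass in either response, and the villin gene Vil1 lay between 2.33 and 4.41 in all arrays and was left out by the filter. The summed log2 level of the list was 9.92 to 10.11 in wild type at 0 h and 11.13 to 11.15 at 24 h, and 9.71 to 9.93 and 10.52 to 10.63 in the null-labelled arrays. Fabp2 gave most of that sum, and its part in the Apoa4 result was not tested.

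The 250 bases before the annotated Apoa4 start are shown because no other member moved as far. The letters come from RefSeq (GRCm38.p6, chr9:46240594-46240843, plus strand), and capitals mark the only match to the motifs searched on both strands, namely TATAAA (the TATA box), AGGTCA and GGGTCA (sites of nuclear receptors) and CAAAGTNCA (an element of the kind bound by HNF4A and related receptors).
Apoa4: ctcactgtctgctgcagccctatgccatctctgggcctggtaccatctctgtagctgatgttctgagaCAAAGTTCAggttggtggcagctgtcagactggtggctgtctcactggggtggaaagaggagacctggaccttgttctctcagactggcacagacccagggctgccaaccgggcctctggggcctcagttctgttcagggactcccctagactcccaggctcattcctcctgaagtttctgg
The match to CAAAGTNCA lies 182 to 174 bases before the start. Of 32851 windows of the same length before mouse gene starts, 1.19% held this motif, 12.4% held TATAAA, 14% held AGGTCA and 11.6% held GGGTCA. These matches overlap no other of the motifs in this window, and a match is not a bound site. Promoter entries were at hand for 8 of the 10 genes, in 12 windows, and CAAAGTNCA was found in the Apoa4 window only.

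Apoc2 encodes the cofactor that lipoprotein lipase needs to hydrolyse triglyceride. Its probe set read 10.90 and 11.22 in wild type at 0 h and 12.53 and 12.41 at 24 h. In the null-labelled arrays it read 11.09 and 11.14 at 0 h and 12.29 and 12.59 at 24 h. Both 24 h groups lay above both 0 h groups, and the genotypes overlapped at each time. Apoc2 rose by 1.41 ± 0.18 in wild type, or 2.65-fold (limma adjusted p = 0.026), and by 1.33 ± 0.18 in the null-labelled arrays, or 2.51-fold (adjusted p = 0.020). The responses differed by -0.081, with a 95% interval from -0.70 to 0.54. The wild type call was lost without any single array of wild type or of the null-labelled 0 h group (adjusted p between 0.053 and 0.12), and the null-labelled call without either null-labelled array at 0 h or the second at 24 h (0.063 to 0.099). The rise itself stayed between 1.17 and 1.57 in these fits. It was also lost in wild type with the replicate number as a block (adjusted p = 0.061) and with median centring (0.050).

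Apoc2 lies in a cluster on chromosome 7 in which the genes follow each other as Apoc2, Apoc4, Apoc1 and Apoe. An annotated transcript unit, Gm44805, spans both Apoc2 and Apoc4, so signal from it could not be told apart from Apoc2. Apoc4 itself, measured by another probe set, read -0.19 ± 0.14 for wild type against -0.15 ± 0.14 for null-labelled arrays (limma adjusted p = 0.45 and 0.50). The 142 bases between the Apoc2 start and the end of Apoc4 (GRCm38.p6, chr7:19677942-19678083, minus strand) are shown for this reason, with a match to AGGTCA at 115 to 110 bases before the start in capitals.
Apoc2: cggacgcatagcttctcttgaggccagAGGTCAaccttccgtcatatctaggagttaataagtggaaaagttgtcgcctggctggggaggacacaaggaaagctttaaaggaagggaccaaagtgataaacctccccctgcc
None of the other motifs was found in this stretch.

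Apoc1 and Apoe, the other members in that cluster, did not pass in either response. Apoc1 encodes a small protein that inhibits lipoprotein lipase and the uptake of remnants. It read 12.96 in both wild type arrays at 0 h and 12.50 and 12.67 at 24 h, and 12.90 and 12.97 against 12.48 and 12.54 in the null-labelled arrays. Both 0 h groups lay above both 24 h groups. The difference was -0.38 ± 0.13 in wild type (limma adjusted p = 0.14) and -0.43 ± 0.13 in the null-labelled arrays (adjusted p = 0.093), which missed the threshold. Apoe encodes the ligand by which remnants are taken up by hepatocytes. It read 13.27 and 13.26 in wild type at 0 h against 13.07 and 13.22 at 24 h, and 13.24 and 13.21 against 13.14 and 13.15 in the null-labelled arrays. The differences of -0.12 and -0.081 did not pass (adjusted p = 0.60 and 0.70), and on the deposited scale their sign turned (0.038 and 0.10).

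Macrophages make apolipoproteins E and C-I too, so their markers were read beside these genes. All 8 macrophage genes were above the filter. Their summed log2 level was 11.23 to 11.39 in wild type at 0 h and 10.999 to 11.31 at 24 h, and 11.26 to 11.27 and 11.30 to 11.50 in the null-labelled arrays. In wild type 1 of the 8 was called higher and none lower, beside 2.64% and 2.7% of all probe sets tested. In the null-labelled response 2 were called higher and 1 lower, beside 6.06% and 4.72%. Called or not, 3 of the 8 were higher in wild type (median -0.43) and 4 in the null-labelled response (median 0.15). Between genotypes at 24 h all 8 were higher in the null-labelled arrays (median 0.36), and none was called. Marco, a scavenger receptor, rose by 4.001 ± 0.30 in wild type and by 4.13 ± 0.30 in the null-labelled arrays (limma adjusted p = 0.017 and 0.012), while Clec4f of resident Kupffer cells was -0.87 and -0.30 (adjusted p = 0.087 and 0.43). Their part in the Apoe and Apoc1 values was not tested.

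Apom encodes the carrier of sphingosine 1-phosphate on HDL. Its brighter probe set read 11.34 and 11.38 in wild type at 0 h and 10.63 and 10.68 at 24 h. In the null-labelled arrays it read 11.31 and 11.19 at 0 h and 10.71 and 10.94 at 24 h. All 4 arrays at 0 h lay above all 4 at 24 h, and the wild type groups stood further apart than the null-labelled ones. Apom fell by 0.71 in wild type (SE 0.14, limma adjusted p = 0.049). In the null-labelled arrays the difference was -0.42 ± 0.14 (adjusted p = 0.11), and the responses differed by 0.29 (95% interval -0.21 to 0.78). The second probe set gave -0.58 ± 0.14 (adjusted p = 0.066) and -0.27 ± 0.14 (0.24). The wild type call is marginal, and was lost without the filter (limma adjusted p = 0.13) and in a fit of only the groups compared (0.11). Leaving out any array except the second null-labelled one at 24 h ended it (adjusted p from 0.050 to 0.20, difference -0.69 to -0.73), as did the replicate block (0.095) and median centring (0.084), while on the deposited scale both probe sets passed (0.036 and 0.043).

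The 250 bases before the Apom start (GRCm38.p6, chr17:35131802-35132051, minus strand) are shown as those of the only member called lower in either response. Capitals mark both matches to GGGTCA, at 156 to 151 and 32 to 27 bases before the start.
Apom: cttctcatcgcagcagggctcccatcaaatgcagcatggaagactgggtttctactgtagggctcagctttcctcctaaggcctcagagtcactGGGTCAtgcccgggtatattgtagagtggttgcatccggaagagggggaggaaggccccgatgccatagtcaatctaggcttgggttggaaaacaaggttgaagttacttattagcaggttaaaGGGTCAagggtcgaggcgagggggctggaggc
No match to the other motifs searched was found in it. Members that were not called held such matches too, AGGTCA in a window of Apoa2 and GGGTCA in windows of Apoa5 and Apoe.

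**Figure D2:**
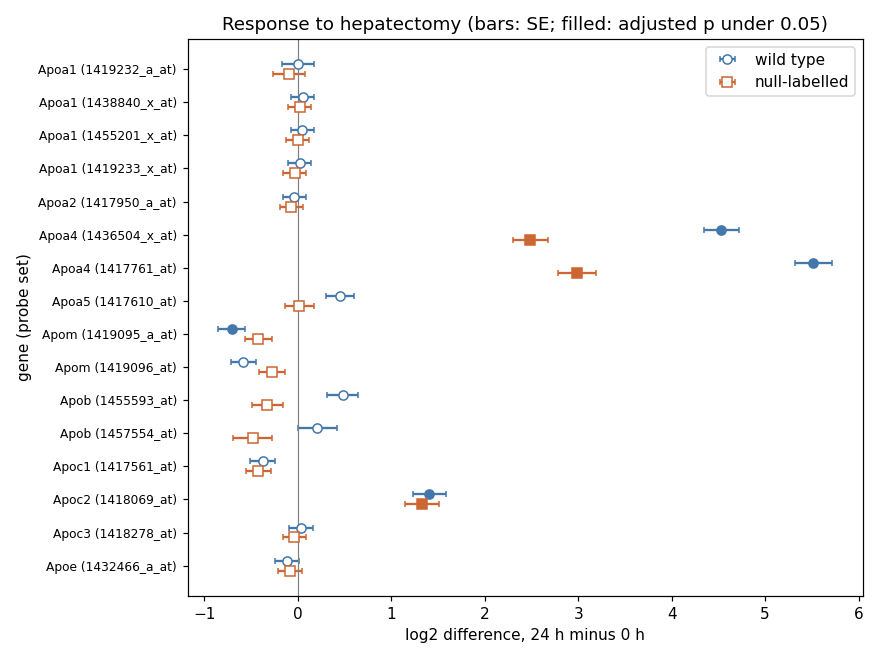
Log2 difference between 24 h and 0 h for all 16 probe sets in wild type (blue circles) and null-labelled arrays (orange squares), with bars of 1 SE and filled symbols where the limma adjusted p was under 0.05. Both Apoa4 probe sets and Apoc2 are filled in both genotypes, and 1 Apom probe set in wild type only, which does not show that the genotypes differ.

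Apob showed opposite directions in the genotypes, none of which passed. Its brighter probe set read 12.22 and 12.11 in wild type at 0 h and 12.57 and 12.72 at 24 h. In the null-labelled arrays it read 11.98 and 11.88 at 0 h and 11.77 and 11.44 at 24 h. Wild type at 24 h was the highest group and null-labelled at 24 h the lowest, and no groups overlapped. The differences were 0.48 ± 0.17 in wild type (limma adjusted p = 0.14) and -0.33 ± 0.17 in the null-labelled arrays (adjusted p = 0.24). The second, dimmer probe set had the same signs, 0.21 ± 0.21 and -0.49 ± 0.21. With replicate 2 of wild type at 24 h left out, the wild type value of this probe set was -0.035.

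Apoa5 encodes apolipoprotein A-V, which promotes the hydrolysis of triglyceride by lipoprotein lipase. It read 12.38 and 12.33 in wild type at 0 h and 12.80 in both arrays at 24 h. In the null-labelled arrays it read 12.49 and 12.34 at 0 h and 12.28 and 12.58 at 24 h, so that the groups overlapped there and not in wild type. The difference was 0.45 ± 0.15 in wild type (limma adjusted p = 0.14) and 0.017 ± 0.15 in the null-labelled arrays (adjusted p = 0.95).

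Apoa1, Apoa2 and Apoc3 were among the brightest probe sets of every array, and their differences depended on the scaling. Apoa1 and Apoa2 encode the main proteins of HDL, and Apoc3 an inhibitor of lipoprotein lipase and remnant uptake. The brightest Apoa1 probe set held ranks 1 to 4 over the 8 arrays, Apoa2 ranks 9 to 16 and Apoc3 ranks 39 to 49. Quantile normalisation gives equal ranks equal values, so it sets a ceiling for such probe sets. After it the differences between 24 h and 0 h, wild type first and null-labelled second, were 0 and -0.097 for Apoa1, -0.040 and -0.072 for Apoa2, and 0.035 and -0.036 for Apoc3. The adjusted p of limma lay between 0.73 and 1 in all 6. On the deposited scale they were 0.21 and 0.19 for Apoa1, 0.14 and 0.16 for Apoa2, and 0.20 and 0.13 for Apoc3, all higher at 24 h and none past the threshold (adjusted p from 0.36 to 0.55). The other 3 Apoa1 probe sets were between 0.18 and 0.21 higher on that scale in both genotypes. The deposited signal at rank 10 of the arrays also moved, from a mean of 13.43 at 0 h to 13.60 at 24 h in wild type and from 13.42 to 13.62 in the null-labelled arrays. At rank 100 it was 12.56 and 12.54, and 12.53 and 12.49. A change of the brightest genes and a shift of the top of the scale therefore cannot be told apart here.

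**Figure D3:**
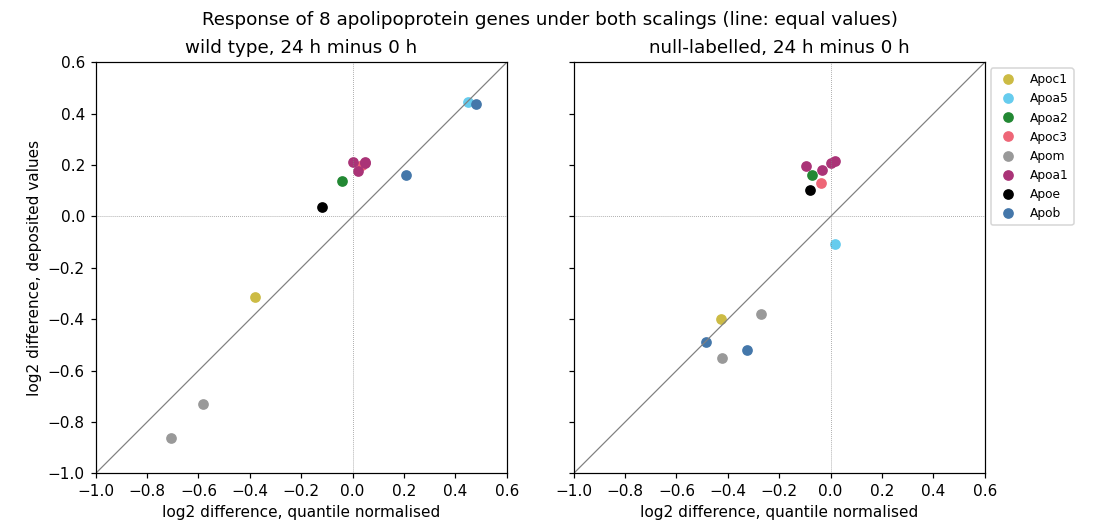
Log2 difference between 24 h and 0 h after quantile normalisation (horizontal axis) and on the deposited scale (vertical axis) for the probe sets of 8 genes, in wild type (left) and null-labelled arrays (right); the diagonal marks equal values, and Apoa4 and Apoc2 lie outside the range shown. The probe sets of Apoa1, Apoa2, Apoc3 and Apoe lie above the diagonal in both panels, and those of Apom below it.

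The genes Apoa1, Apoc3, Apoa4 and Apoa5 follow each other on chromosome 9. Set side by side, their responses in wild type were 0, 0.035, 4.53 and 0.45, and in the null-labelled arrays -0.097, -0.036, 2.49 and 0.017. Apoa4 was the only one of them called in either genotype. In the chromosome 7 cluster the order Apoc2, Apoc4, Apoc1, Apoe gave 1.41, -0.19, -0.38 and -0.12 in wild type and 1.33, -0.15, -0.43 and -0.081 in the null-labelled arrays, with Apoc2 the only one called.

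Between the genotypes no member passed, as no probe set on the array did by limma, at 0 h or at 24 h (0% called in both). At an unadjusted p under 0.05 there were 2 member probe sets and 2779 of all at 0 h, and 3 and 3134 at 24 h. The largest difference at 0 h among the probe sets standing for the members was that of Apoa4, and at 24 h that of Apob. At 0 h Apoa4 was 1.16 ± 0.19 higher in the null-labelled arrays (2.24-fold, limma adjusted p = 0.29), and at 24 h -0.88 ± 0.19, so lower by 1.84-fold (adjusted p = 0.29). The second probe set gave 1.32 ± 0.20 and -1.21 ± 0.20 (adjusted p = 0.27 and 0.24). Apob differed by -0.24 ± 0.17 at 0 h (adjusted p = 0.71) and at 24 h by -1.04 ± 0.17, or 2.06-fold (adjusted p = 0.23). The second Apob probe set was 0.20 ± 0.21 and -0.49 ± 0.21 (adjusted p = 0.82 and 0.50). Apoa5 was -0.37 ± 0.15 at 24 h (adjusted p = 0.50). The probe sets standing for the other 7 genes differed by at most 0.18 at either time. Groups did not overlap in 6 of 10 genes at 0 h and in 5 of 10 at 24 h, beside 46.2% (22.2% higher, 24% lower) and 39.6% (19.2% higher, 20.4% lower) of all probe sets tested.

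**Figure D4:**
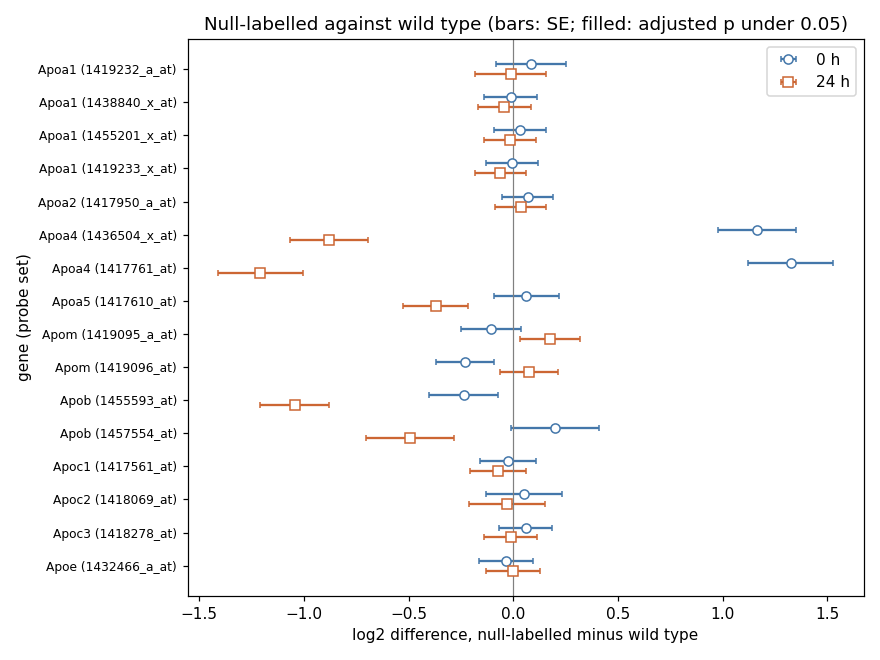
Log2 difference between null-labelled and wild type arrays for all 16 probe sets at 0 h (blue circles) and 24 h (orange squares), with bars of 1 SE. No symbol is filled, since none had a limma adjusted p under 0.05; Apoa4 is higher in null-labelled arrays at 0 h and lower at 24 h.

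The difference between the responses was tested directly, and none of 30525 probe sets passed by limma (0% called; 2433 had an unadjusted p under 0.05, among them 3 of the 16 member probe sets). For Apoa4 the null-labelled response minus that of wild type was -2.04 ± 0.26 (log2 ± SE, 95% interval -2.69 to -1.40, unadjusted p = 0.00024 and adjusted p = 0.46 by limma), and its second probe set gave -2.53 ± 0.28 (adjusted p = 0.46). For Apob it was -0.81 ± 0.24 (interval -1.38 to -0.23, adjusted p = 0.60), and -0.69 ± 0.30 by the second probe set. Apoa5 gave -0.43 ± 0.22 (adjusted p = 0.68). Of the 10 genes 8 had a lower response in the null-labelled arrays, with a median of -0.076 beside -0.0042 over all probe sets tested. The share of all probe sets with a lower response was not counted. The 8 of 10 therefore cannot be set against a background. The count also depended on the scaling. With median centring the difference turned to 0.098 for Apoa1, 0.14 for Apoa2, 0.033 for Apoc1 and 0.048 for Apoc3. With a trended and robust prior limma called 23 probe sets in this contrast, both of Apoa4 among them (adjusted p = 0.00641 and 0.00447). That setting also called Apoa4 between genotypes at 0 h (0.017 for both) and at 24 h (0.024 and 0.010), and Apob at 24 h (0.0046).

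The rest of the lipoprotein pathway was read from lists of genes by role, as counts and medians. They are to be read beside the shares of all probe sets tested that were called in wild type (2.64% higher, 2.7% lower) and in the null-labelled response (6.06% higher, 4.72% lower), and beside the medians of all probe sets tested, -0.0012 and -0.022. Of 14 genes of assembly and secretion tested, 1 rose in wild type, Syncrip (0.63, limma adjusted p = 0.048), whose product belongs to the machinery that edits Apob RNA. It stood at 0.36 in the null-labelled response (adjusted p = 0.11). In the null-labelled response 2 fell, Dgat2 by 0.82 and Cideb by 0.66, which act in triglyceride synthesis and in VLDL lipidation. In wild type Dgat2 stood at -0.74 and Cideb at -0.23 (limma adjusted p = 0.072 and 0.40). Mttp, the transfer protein that loads lipid onto apolipoprotein B, read 0.66 ± 0.14 in wild type (adjusted p = 0.053) and 0.17 ± 0.14 in the null-labelled arrays. The list's medians were 0.18 and 0.19.

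Of 12 genes of HDL formation and of enzymes carried on HDL, 2 rose in wild type and 2 rose and 1 fell in the null-labelled response. Both that rose were the acute phase apolipoproteins Saa1, by 3.37 and 3.89 in the order of genotypes just given, and Saa2, by 5.09 and 6.00. Pon1, the paraoxonase of HDL, fell by 0.77 in the null-labelled response and stood at -0.80 in wild type (limma adjusted p = 0.051). The medians of this list were -0.30 and -0.22. The constitutive relative Saa4 read -1.44 and -0.97 (adjusted p = 0.077 and 0.14).

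Of 5 lipases and their regulators tested, Lmf1, which matures the lipases in the endoplasmic reticulum, fell by 0.78 in wild type and by 0.66 in the null-labelled response. Angptl8, an inhibitor of lipoprotein lipase induced by feeding, fell by 2.73 in the null-labelled response (limma adjusted p = 0.022). Its mean signal at 0 h was 7.81 for wild type against 10.01 for the null-labelled arrays, and at 24 h 6.49 against 7.28, with a wild type difference of -1.32 (adjusted p = 0.11). The medians were -0.59 and -0.21. Of 8 uptake receptors and their partners, none passed in wild type, and 1 fell and 1 rose in the null-labelled response (medians -0.47 and -0.16). Lrp1, the remnant receptor, fell by 1.26 there and stood at -0.51 in wild type (limma adjusted p = 0.16). The heparan sulfate proteoglycan Sdc1 rose by 0.74 in the null-labelled response and stood at 0.32 in wild type (adjusted p = 0.18). Of 8 other apolipoproteins tested none passed in either response (medians -0.12 and 0.060).

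Of 15 regulators of apolipoprotein genes, 2 fell in wild type, 4 fell in the null-labelled response, and none rose in either. Nr1d1, which encodes a repressor of the circadian clock, differed by -2.92 and -3.92, and Cebpa, a factor of hepatocyte differentiation, by -1.38 and -1.97. Foxa2 and Ppara differed by -0.83 and -1.44 in the null-labelled response and stood at -0.20 and -0.19 in wild type. Creb3l3, an activator of Apoa4 and Apoc2, read 0.69 ± 0.15 in wild type (limma adjusted p = 0.055) and 0.44 ± 0.15 in the null-labelled arrays (adjusted p = 0.11). Hnf4a read -0.16 and -0.52 (adjusted p = 0.51 and 0.065). The list's medians were -0.16 and -0.47. No gene of these lists passed between genotypes or in the difference between the responses.

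**Figure D5:**
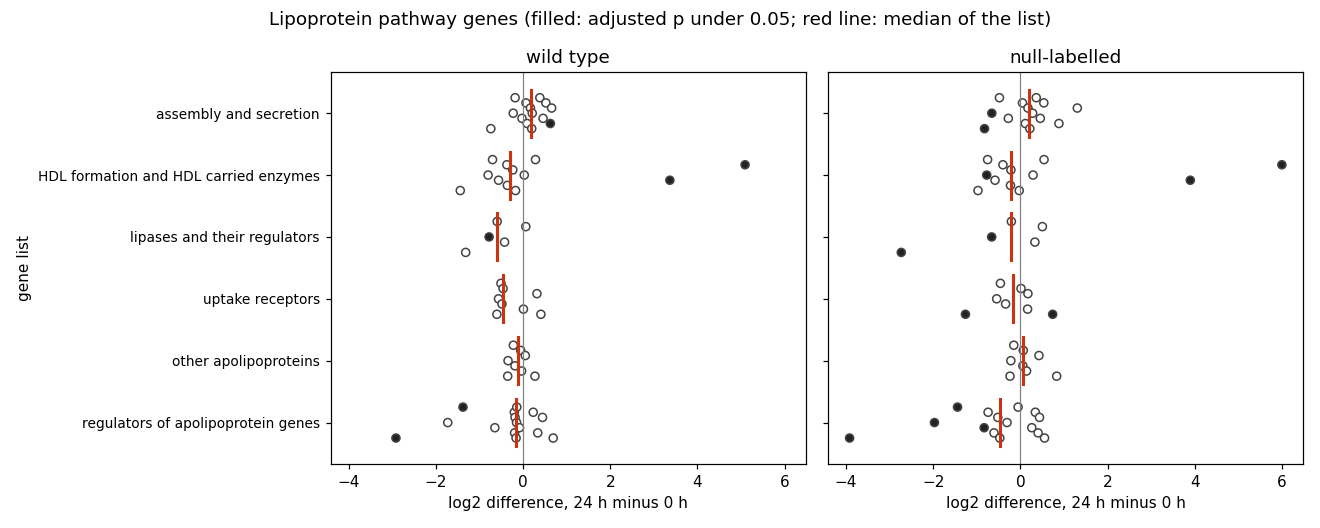
Log2 difference between 24 h and 0 h for genes of 6 lists of the lipoprotein pathway in wild type (left) and null-labelled arrays (right); each point is a gene, filled where the limma adjusted p was under 0.05, and the red line is the median of the list. Saa1 and Saa2 stand apart on the right in both panels, and Nr1d1 on the left.

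By the profile over the 8 arrays, the genes most like Apoa4 were Tor1b (Pearson's r = 0.994), Scyl2 (0.987) and Ddx1 (0.985), out of 11817 probe sets with 1 symbol that varied by at least 1 log2 unit. Their means rose less, for Tor1b from 5.62 to 7.04 in wild type and from 5.86 to 6.81 in the null-labelled arrays. All the arrays share the contrast of time, and with so many candidates high values of r are found readily, so these are given as a description only.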

How the data were processed

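The deposited values are log2 signals per probe set, judged by their range. The scaling that the authors applied was not given in the sources used here. After 64 control probe sets were set aside, quartiles of the arrays still differed by up to 0.619, so values were quantile normalised. Probe sets were tested where at least 2 arrays lay above their 40th percentile (30525). The platform annotation gives 1 symbol to 34945 probe sets, several to 932 and none to 9160, with symbols updated through gene identifiers. Group means were estimated with limma 3.58.1 (R 4.3.3; 4 residual and 2.04 prior degrees of freedom), two-sided, with Benjamini-Hochberg adjustment over all probe sets tested. The members, lists and tests were chosen with earlier results of these data known. The procedure was tested on simulated data with independent normal noise, as the model assumes, which does not show how stable the calls above are.

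Named were all members, up to 4 genes of each pathway list with the smallest p in a comparison, marker genes, and the 3 genes most like Apoa4. Alternatives were other scalings and filters, 1 probe set per gene, a replicate block, a trended and robust prior, a fit of only the groups compared, and leaving out each array; a crossed block was added after the data were seen. No source names the build of the array, so no positions of probe sets are given. Gene order, overlapping genes and the promoter windows searched for motifs came from RefSeq tables.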

Additional observations from a re-analysis of the deposited data

How the results depend on the processing

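Both rises of Apoa4 and of Apoc2 and the lower Apom of wild type kept their direction under every alternative run, and their calls did not. Of 1630 probe sets called in the wild type response, median centring left 980, no filter 12, the filter at the 60th percentile 4000, the replicate block 6, the trended and robust prior 4536 and a fit of only the groups compared 0. Leaving out single arrays gave 0 to 1544: 12 and 6 when wild type replicate 1 or 2 at 0 h was dropped, 0 and 669 when wild type replicate 1 or 2 at 24 h was, and 81 and 124 when the null-labelled replicates at 0 h were. The 4 member probe sets became 2 with median centring, without the filter and with the block, 8 with the trended prior and 0 with only the groups compared, and 0 to 4 without single arrays. In the null-labelled response 3289 became 71 without the filter, 5610 at the 60th percentile, 2121 with 1 probe set per gene, 704 with the block, 5906 with the trended prior and 0 with only the groups compared (9 to 2105 without single arrays, the lowest being 53 and 9 without replicate 1 and 2 at 0 h and 119 without replicate 2 at 24 h). Its 3 member probe sets became 5 at the 60th percentile and with the trended prior, 0 with only the groups compared, and 0 to 3 without single arrays. The genotype difference at 0 h went from 0 to 40 with the trended prior (2 of members). At 24 h it went from 0 to 3 on deposited values and with median centring, 8 at the 60th percentile, 1 with 1 probe set per gene and 198 with the trended prior (3 of members), and the difference between the responses from 0 to 23 (2 of members). The cause was not tested, except that a fit of only the groups compared holds fewer samples. Median centring moved the median of all probe sets tested to 0.108 in the null-labelled response, 0.107 between genotypes at 24 h and 0.104 in the difference between the responses.

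For the probe sets standing for the genes and the second ones of Apoa4, Apob and Apom, signs turned in small differences that were not called. Single values of the other 3 Apoa1 probe sets were recorded under the scalings only, where signs of theirs turned too, such as a null-labelled response of -0.035 that was 0.18 on deposited values and 0.34 with median centring. On deposited values the wild type response was 0.14 for Apoa2 and 0.038 for Apoe, the null-labelled response -0.11 for Apoa5, 0.16 for Apoa2, 0.13 for Apoc3, 0.19 for Apoa1 and 0.10 for Apoe, and the difference between the responses 0.022 for Apoa2. With median centring the wild type response was 0.18 for Apoa2 and 0.083 for Apoe, and the null-labelled one 0.32 for Apoa2, 0.29 for Apoc3, 0.36 for Apoa1 and 0.26 for Apoe. Between genotypes at 24 h it gave 0.022 for both Apoc1 and Apoc2, 0.12 for Apoc3 and 0.15 for Apoa1, and between the responses 0.033 for Apoc1, 0.14 for Apoa2, 0.048 for Apoc3 and 0.098 for Apoa1. Leaving out single arrays turned the sign of 18 values of those probe sets, whose ranges follow; those of the other 3 Apoa1 probe sets were not recorded there. The wild type response ran from -0.035 to 0.45 for the second Apob probe set and from -0.011 to 0.079 for Apoc3, and the null-labelled one from -0.24 to 0.021 for Apoa1 and from -0.13 to 0.16 for Apoa5. The genotype difference at 0 h ran from -0.028 to 0.21 for Apoa1, -0.0088 to 0.14 for Apoa5, -0.064 to 0.0083 for Apoc1 and -0.11 to 0.21 for Apoc2. At 24 h it ran from -0.15 to 0.11 for Apoa1, -0.15 to 0.0099 for Apoc1, -0.18 to 0.11 for Apoc2, -0.057 to 0.030 for Apoc3, -0.078 to 0.076 for Apoe and -0.022 to 0.18 for the second Apom probe set. The difference between the responses ran from -0.24 to 0.021 for Apoa1, -0.12 to 0.034 for Apoc1, -0.24 to 0.086 for Apoc2 and -0.039 to 0.11 for Apoe.

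Replicate numbers gave no pairing: labels do not say that they mark a shared batch, and deviations of same-numbered arrays correlated between -0.17 and 0.055. The replicate block is therefore an alternative only, and the crossed block called 0 probe sets between genotypes at 24 h. In wild type Apoa5, Apob and Apoc1 passed with the trended and robust prior and under no other alternative, and the second Apom probe set passed with it, on deposited values and at the 60th percentile. In the null-labelled response Apoc1 and Apom passed with it and at the 60th percentile.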
